A study of Equus asinus with 2 samples.

Results

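Cell cycle genes were examined in 2 single-cell RNA libraries of fetal donkey (Equus asinus), as 27 genes of S phase, when DNA is copied, and 21 genes of G2 and mitosis (G2/M), when chromosomes condense and separate. The tested library was ovarian tissue at 8 weeks of gestation, and the library it was set against was gonad with mesonephros, the transient embryonic kidney, at 4 weeks. Both were taken from slaughtered animals, no treatment or genotype is given, and the number of fetuses behind each library is not stated. The members were the rows of the deposited tables that carry these symbols, 46 of 48 genes among 38517 features: 26 of the S phase list and 20 of the G2/M list. CENPE was not analysed here, and SLBP, found only through the RefSeq gene table of the donkey, is described apart. Stage, tissue, animal and library differ together and cannot be told apart, and with 1 library per stage no test of a difference between stages was possible.

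A cell that copies its DNA first loads the MCM2 to MCM7 helicase onto origins with CDC6 and CDT1, and geminin (GMNN) blocks a second loading. CDC45 and the GINS complex then start the helicase, the clamp PCNA, its loader RFC2 and the polymerases POLA1 and POLD3 synthesise DNA, and TYMS, RRM1 and RRM2 make its building blocks. In G2/M the kinase CDK1 with the cyclins CCNA2, CCNB1 and CCNB2 drives entry into mitosis, kinesins and kinetochore proteins move the chromosomes, and UBE2C with the anaphase-promoting complex ends it. In the fetal gonad, germ cells and their supporting cells are known to multiply, while hormone-producing and terminally differentiated cells are known to divide less.

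RNA molecules were counted by unique molecular identifiers (UMIs). At 8 weeks 14593 barcodes carried 155128130 UMIs, with a median of 5877 UMIs each, and at 4 weeks 8938 barcodes carried 122341903 UMIs, with a median of 7728. S phase members made up 0.155% of all UMIs at 8 weeks and 0.148% at 4 weeks, and G2/M members 0.179% and 0.171%. Cells were assigned to classes by marker genes that are no members, and a name ends in "-like" because it rests on those markers alone. Both libraries held Sertoli-like cells, the supporting cells of a testis: AMH, the anti-Müllerian hormone, stood at 3922 CPM (UMIs per 1000000) in them at 8 weeks and 2908 CPM at 4 weeks, and the granulosa cell factor FOXL2 at 0.1 CPM in both. AMH was itself among the markers that assigned Sertoli-like cells, and FOXL2 was among the pre-granulosa markers. Cells that also met the markers of another class were left out, so these levels are partly set by the assignment. The 8-week library is labelled as ovary, and for that reason these levels cannot decide whether the label holds. The libraries shared 38 barcode sequences, and without those barcodes none of the share ratios or member medians recomputed changed its direction.

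To compare cells of unequal depth, each cell with at least 2000 UMIs was thinned at random to 2000 UMIs, and the share of cells with 2 or more UMIs of a list was counted. This left out 3517 barcodes at 8 weeks and 1196 at 4 weeks. The 95% intervals given with the values cover counting error alone, without any variation among animals. Such a share is not a share of dividing cells, and the level of free RNA in the droplets was not measured. Podocyte-like cells, the filtering cells of the mesonephros, which are known to leave the cell cycle as they mature, are given for comparison: 20.8% of 72 cells for the S phase list and 12.5% for the G2/M list at 4 weeks. In them 8 of 78 cells held 62.3% of the G2/M UMIs. Their median depth before thinning was 9202 UMIs, against 7728 in their library.

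Among the classes that were given a name and held at least 50 cells, germ-cell-like cells had the highest shares of both lists in both libraries. For the S phase list the share was 94.99% at 8 weeks (92.7 to 96.7, 499 cells) and 98.5% at 4 weeks (96.8 to 99.5, 408 cells). For the G2/M list it was 70.7% (66.5 to 74.7) at 8 weeks and 75.2% (70.8 to 79.4) at 4 weeks. These intervals overlapped those of no other such class. The cells gated by pre-granulosa markers were left unnamed, since DCDC2, CDH6 and CHN2 led them, and stand outside this order. At 8 weeks 9 of 18 such cells had 2 or more UMIs, for either list (interval 26.02% to 73.98%). At 4 weeks the shares over 67 cells were 73.1% for the S phase list (60.9 to 83.2) and 64.2% for the G2/M list (51.5 to 75.5). Their G2/M intervals overlapped those of germ-cell-like cells, and their S phase interval at 4 weeks lay above that of Sertoli-like cells. Of the named classes, Sertoli-like cells followed for the S phase list with 64.7% at 8 weeks (61.0 to 68.3) and 56.4% at 4 weeks (52.4 to 60.3). The interval lay apart from that of the next class, stroma-like cells, at 8 weeks and overlapped that of the next class, steroidogenic-like cells, at 4 weeks.

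Below these 2 classes the S phase shares lay close together. At 8 weeks they were 53.2% in stroma-like, 49.5% in steroidogenic-like, 45.8% in macrophage-like, 41.1% in endothelial-like, 40.2% in mural-like and 37.9% in leukocyte-like cells. At 4 weeks the same 6 classes lay between 39.0% in mural-like and 44.6% in steroidogenic-like cells. Among these 6 classes each interval overlapped that of its neighbour in the order, in both libraries. Proximal-tubule-like cells held 26.1% and distal-tubule-like cells 18.8% at 4 weeks, and both intervals overlapped that of podocyte-like cells.

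**Figure D1:**
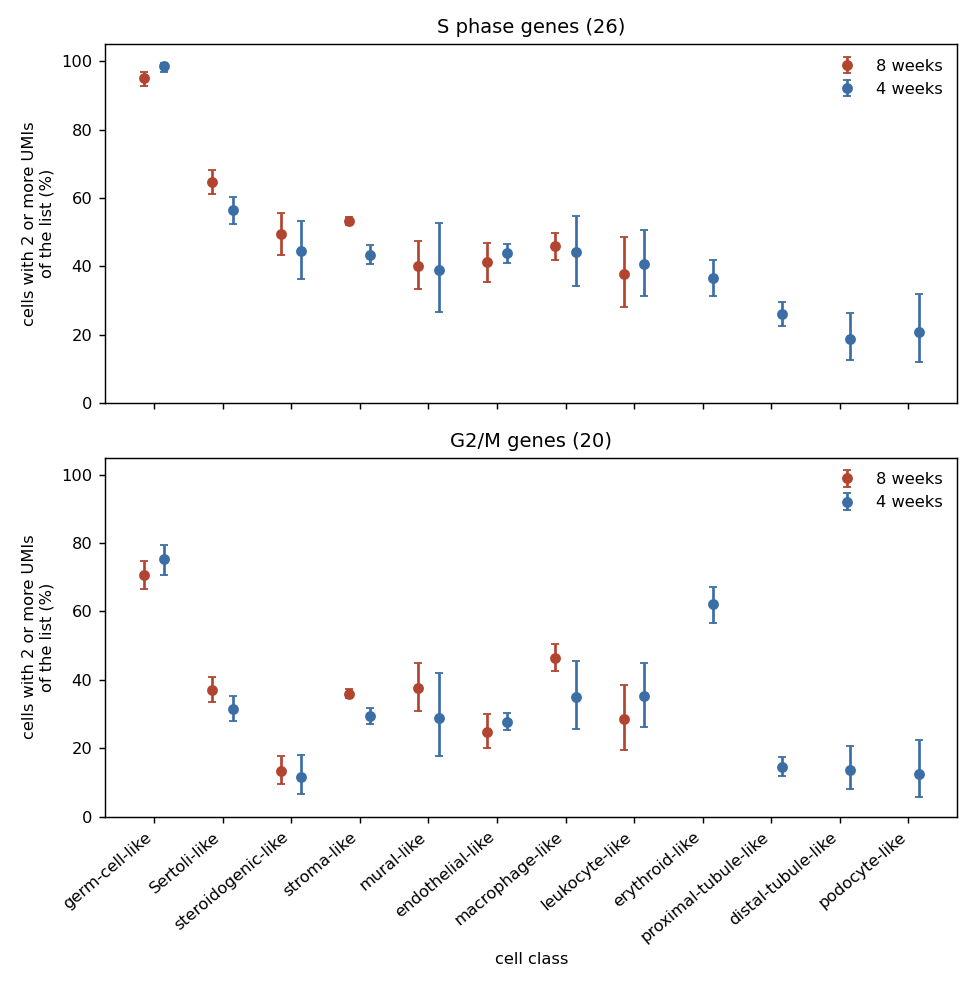
Share of cells with 2 or more UMIs of the 26 S phase genes (top) and the 20 G2/M genes (bottom) by cell class after thinning to 2000 UMIs; points are libraries (8 weeks red, 4 weeks blue) and bars are exact 95% intervals of counting error. Germ-cell-like cells stand above the other plotted classes in both panels, from 70.7% to 98.5%, and steroidogenic-like cells fall to 13.3% and 11.5% for the G2/M genes.

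The G2/M list ordered the classes differently. Steroidogenic-like cells, which make steroid hormones, held the lowest G2/M share in both libraries, 13.3% at 8 weeks (9.51 to 17.8, 279 cells) and 11.5% at 4 weeks (6.72 to 18.0, 139 cells). These shares overlapped those of podocyte-like (12.5%), distal-tubule-like (13.5%) and proximal-tubule-like cells (14.6%), so no order among them is read. Erythroid-like cells, red cell precursors compared at 4 weeks only, had a G2/M share of 62.1% (56.7 to 67.2, 340 cells), second to germ-cell-like cells among the named classes and close to the 64.2% of the unnamed cells, beside an S phase share of 36.5%. Of the erythroid-like cells 30.3% had 2 or more G2/M UMIs without 2 S phase UMIs, against 15.7% of leukocyte-like and 15.5% of macrophage-like cells in the same library. The share was 0.98% in germ-cell-like cells, where nearly every cell had S phase UMIs.

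The S phase share of steroidogenic-like cells turned on a few members. In these cells MCM5 and GMNN gave 48.2% of the S phase UMIs at 8 weeks and 51.8% at 4 weeks, while in stroma-like cells they gave 9.40% and 8.91%. MCM5 stood at 298 CPM in steroidogenic-like cells at 8 weeks and 282 CPM at 4 weeks, its highest levels in any class, and at 90.4 CPM and 62.8 CPM in stroma-like cells. GMNN stood at 104 CPM at 8 weeks and 149 CPM at 4 weeks in steroidogenic-like cells, and the 4-week level is close to that of germ-cell-like cells (153 CPM). Across 20 combinations of class and library, which share their libraries, MCM5 correlated with the mean of the other S phase members with r = 0.06 and GMNN with r = 0.10, while CDT1 reached 0.94 and MCM4 0.92. Without HELLS, MCM5 and GMNN the steroidogenic-like S phase share was 19.4% at 8 weeks and 13.7% at 4 weeks, and that of podocyte-like cells 16.7%. Without these 3 members the steroidogenic-like and podocyte-like intervals overlapped.

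HELLS, a chromatin remodeller needed for DNA methylation, marked germ-cell-like cells in the same way. It stood at 647 CPM at 8 weeks and 1268 CPM at 4 weeks in them, and in the other classes at no more than 73.8 CPM at 8 weeks and 142 CPM at 4 weeks, both in Sertoli-like cells. HELLS gave 22.9% of the germ-cell-like S phase UMIs at 8 weeks and 36.2% at 4 weeks. Without HELLS, MCM5 and GMNN the germ-cell-like S phase share was still 82.2% at 8 weeks and 85.3% at 4 weeks. The ratio of HELLS at 8 over 4 weeks was 0.51 (0.49 to 0.53) in germ-cell-like, 0.52 (0.48 to 0.56) in Sertoli-like and 0.51 (0.39 to 0.67) in steroidogenic-like cells. In stroma-like, endothelial-like, macrophage-like and leukocyte-like cells it lay between 0.71 and 0.78, with intervals that held 1 in macrophage-like and leukocyte-like cells. In mural-like cells it was 1.38 (0.81 to 2.52). POU5F1, a marker of the germ cell gate, stood at 622 CPM at 8 weeks and 932 CPM at 4 weeks in germ-cell-like cells. It also reached 46.5 CPM and 62.8 CPM in Sertoli-like and 12.4 CPM and 22.0 CPM in steroidogenic-like cells. The part of germ cell RNA in the HELLS levels of Sertoli-like and steroidogenic-like cells was not tested.

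Other S phase members were also highest in germ-cell-like cells. MCM7 stood there at 274 CPM at 8 weeks and 273 CPM at 4 weeks, MCM6 at 156 CPM and 186 CPM, and DTL, which with the CUL4 ligase removes CDT1, at 65.4 CPM and 122 CPM. UNG, which removes uracil from DNA, stood at 116 CPM at 8 weeks and 121 CPM at 4 weeks in germ-cell-like cells, and at no more than 45.4 CPM and 32.8 CPM in the other compared classes. TYMS, the thymidylate synthase, was highest in stroma-like cells at 8 weeks (200.3 CPM). RRM2 was highest in erythroid-like cells (167 CPM at 4 weeks), as were MKI67 (373 CPM) and PLK1 (91.0 CPM).

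**Figure D2:**
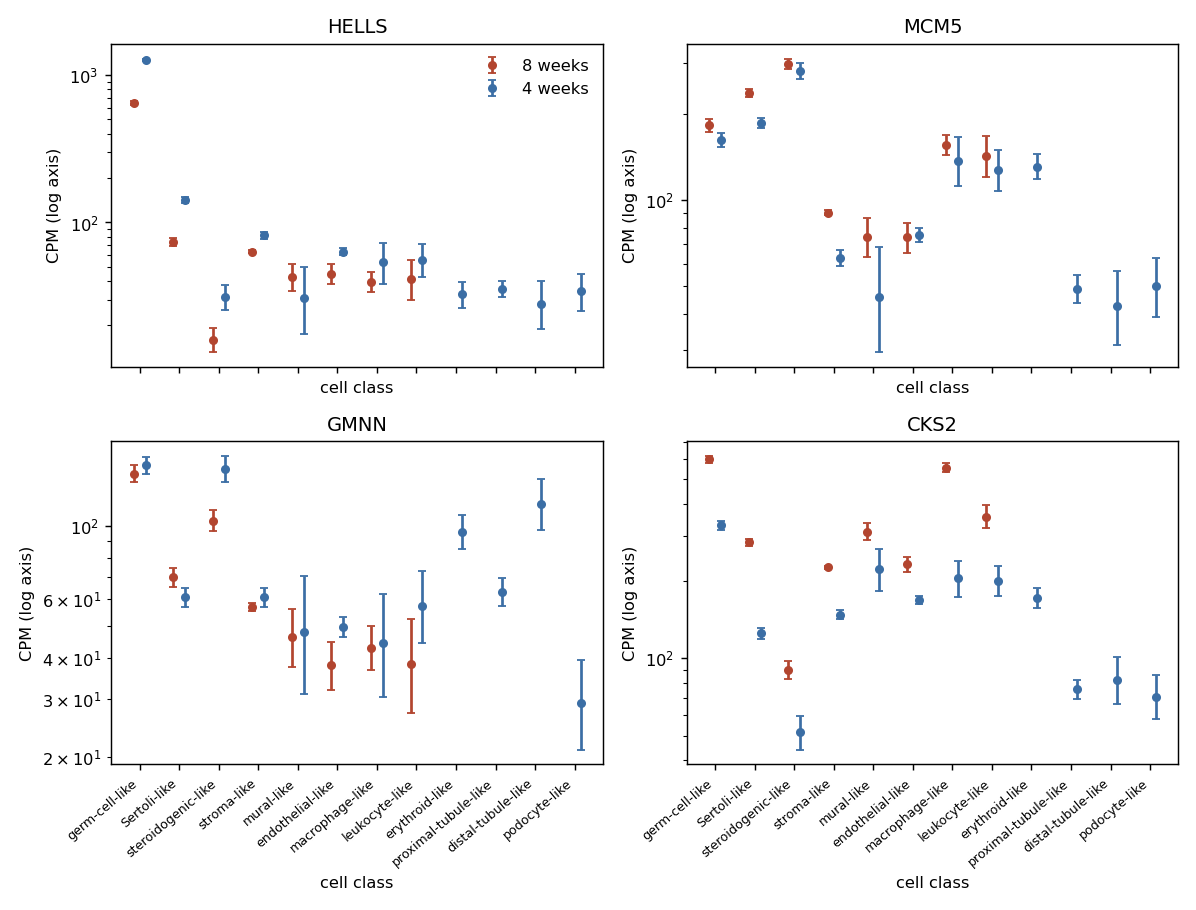
Level of HELLS, MCM5, GMNN and CKS2 by cell class in CPM on a log axis (8 weeks red, 4 weeks blue; bars are exact Poisson 95% intervals of counting error; the last 4 classes are shown at 4 weeks only). HELLS stands apart in germ-cell-like cells (647 and 1268 CPM), MCM5 is highest in steroidogenic-like cells (298 and 282 CPM), and CKS2 is higher at 8 weeks in all 8 classes shown for both stages.

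Between the stages, the shares moved little. The ratio of 8 over 4 weeks of the S phase share had an interval without 1 in 3 of 8 classes: 1.23 in stroma-like (1.15 to 1.31), 1.15 in Sertoli-like (1.05 to 1.253) and 0.964 in germ-cell-like cells (0.942 to 0.987). In stroma-like cells the share was 53.2% at 8 weeks and 43.4% at 4 weeks after thinning, but 79.1% and 85.1% without it, with median depths of 6859.5 UMIs at 8 weeks and 8389 UMIs at 4 weeks. The limit of 2000 UMIs left out 773 of 6948 stroma-like cells at 8 weeks and 30 of 1380 at 4 weeks, an unequal loss. The sums over cells lay the same way as the thinned shares: S phase members summed to 1567 CPM at 8 weeks and 1388 CPM at 4 weeks in stroma-like, to 1364 CPM and 1234 CPM in Sertoli-like, and to 2827 CPM and 3500 CPM in germ-cell-like cells. Without PCNA, TYMS and RFC2, picked for their higher values at 8 weeks, the ratio of the sums was 1.01 (0.998 to 1.03) in stroma-like, 0.99 (0.97 to 1.01) in Sertoli-like and 0.75 (0.74 to 0.76) in germ-cell-like cells. In such sums fewer cells with the RNA and less RNA per cell cannot be told apart. In the other 5 classes the interval of the ratio held 1, from a ratio of 0.93 in leukocyte-like to 1.11 in steroidogenic-like cells.

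For the G2/M list the share and the sum went opposite ways in 4 of 8 classes, so no order of the stages is read from the share there. In stroma-like cells the share was 36.0% at 8 weeks and 29.4% at 4 weeks, while the members summed to 1896 CPM and 2031 CPM. Macrophage-like cells had shares of 46.5% and 35.1% beside sums of 1723 CPM and 2238 CPM, mural-like cells 37.6% and 28.8% beside 1828 CPM and 2509 CPM, and steroidogenic-like cells 13.3% and 11.5% beside 349 CPM and 385 CPM. Of these 4 classes, only stroma-like cells had a share ratio whose interval excluded 1 (1.12 to 1.34). In Sertoli-like cells share and sum lay the same way, with 37.0% at 8 weeks and 31.6% at 4 weeks and sums of 1348 CPM and 1138 CPM. In germ-cell-like, endothelial-like and leukocyte-like cells both were lower at 8 weeks, and the intervals of the 3 share ratios held 1. Unthinned, the G2/M share was 61.6% at 8 weeks and 63.6% at 4 weeks in stroma-like cells, and 82.5% and 79.9% in Sertoli-like cells.

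The G2/M members did not move together: the same genes stood higher, and the same genes lower, from class to class. UBE2C, the ubiquitin-conjugating enzyme of the anaphase-promoting complex, had 235 CPM at 8 weeks and 108 CPM at 4 weeks in stroma-like cells, a ratio of 2.17 (2.06 to 2.28). In Sertoli-like cells UBE2C had 237 CPM at 8 weeks and 86.2 CPM at 4 weeks, and in germ-cell-like cells 300.05 CPM and 166 CPM. UBE2C was higher at 8 weeks in all 8 classes, by a ratio from 1.13 in leukocyte-like cells, whose interval of 0.89 to 1.43 held 1, to 2.75 in Sertoli-like cells.

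CKS2, a small subunit of the CDK1 kinase, was also higher at 8 weeks in all 8 classes. It had 554 CPM at 8 weeks and 205 CPM at 4 weeks in macrophage-like cells, a ratio of 2.70 (2.29 to 3.20), and 597 CPM and 331 CPM in germ-cell-like cells. The smallest ratio was 1.37 (1.27 to 1.48), in endothelial-like cells. CDK1 itself was higher in 7 of 8 classes, with 54.3 CPM at 8 weeks and 20.3 CPM at 4 weeks in Sertoli-like cells, and lower in leukocyte-like cells (28.4 CPM and 33.1 CPM), where the interval held 1.

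Against these, 8 G2/M members were lower at 8 weeks in all 8 classes: MKI67, TOP2A, AURKA, CENPF, KIF11, KIF20B, KIF23 and ASPM. How many genes outside the lists were lower in all 8 classes was not counted. CENPF, which binds kinetochores, had 549 CPM at 8 weeks and 925 CPM at 4 weeks in germ-cell-like cells, and 259 CPM and 364 CPM in stroma-like cells, a ratio of 0.71 (0.69 to 0.73). TOP2A, the topoisomerase that untangles chromosomes, had 247 CPM at 8 weeks and 362 CPM at 4 weeks in stroma-like cells, and 97.1 CPM and 346 CPM in leukocyte-like cells, where the ratio was 0.28 (0.22 to 0.35). MKI67, whose protein coats mitotic chromosomes and is a common proliferation marker, had 119 CPM at 8 weeks and 158 CPM at 4 weeks in stroma-like cells. In germ-cell-like cells MKI67 had 102 CPM at 8 weeks and 106 CPM at 4 weeks, and the interval of that ratio, 0.87 to 1.07, held 1.

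Of the others in this group, AURKA, a kinase of the spindle poles, had median log2 ratios over the 8 classes of -0.48, ASPM, another spindle pole protein, of -0.67, and the spindle motors KIF11, KIF20B and KIF23 of -0.67, -0.65 and -0.55. The pattern was least stable in steroidogenic-like and mural-like cells. In the 4-week library 14 of 141 steroidogenic-like cells held 66.6% of that class's G2/M UMIs, and without the 6% of barcodes with the highest doublet scores TOP2A, CENPF and MKI67 turned higher at 8 weeks there. With looser gates, TOP2A, CENPF and MKI67 turned higher at 8 weeks in mural-like cells, of which the stated gate held 60 at 4 weeks. Scaled by the median ratio of all genes instead of the total, AURKA turned in steroidogenic-like and MKI67 in germ-cell-like cells.

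Between these groups stood the mitotic cyclins. CCNB1 had 74.3 CPM at 8 weeks and 67.3 CPM at 4 weeks in stroma-like cells, 217 CPM and 230 CPM in germ-cell-like cells, and 65.0 CPM and 47.1 CPM in Sertoli-like cells. Over the classes the median log2 ratio of CCNB1 was -0.07, that of CCNB2 -0.03 and that of CCNA2 0.14. The checkpoint kinases BUB1 and BUB1B had medians of -0.29 and -0.23. The Aurora kinase AURKB had 0.04 and the Polo-like kinase PLK1 -0.06, each over 6 classes with 3 higher and 3 lower. AURKB ranged from -1.33 to 0.32 and PLK1 from -0.70 to 0.21. CENPA, the histone of centromeres, reached 50 UMIs over both libraries in 4 classes, and ANLN, which builds the cleavage furrow, in 6, with a median of -0.67.

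**Figure D3:**
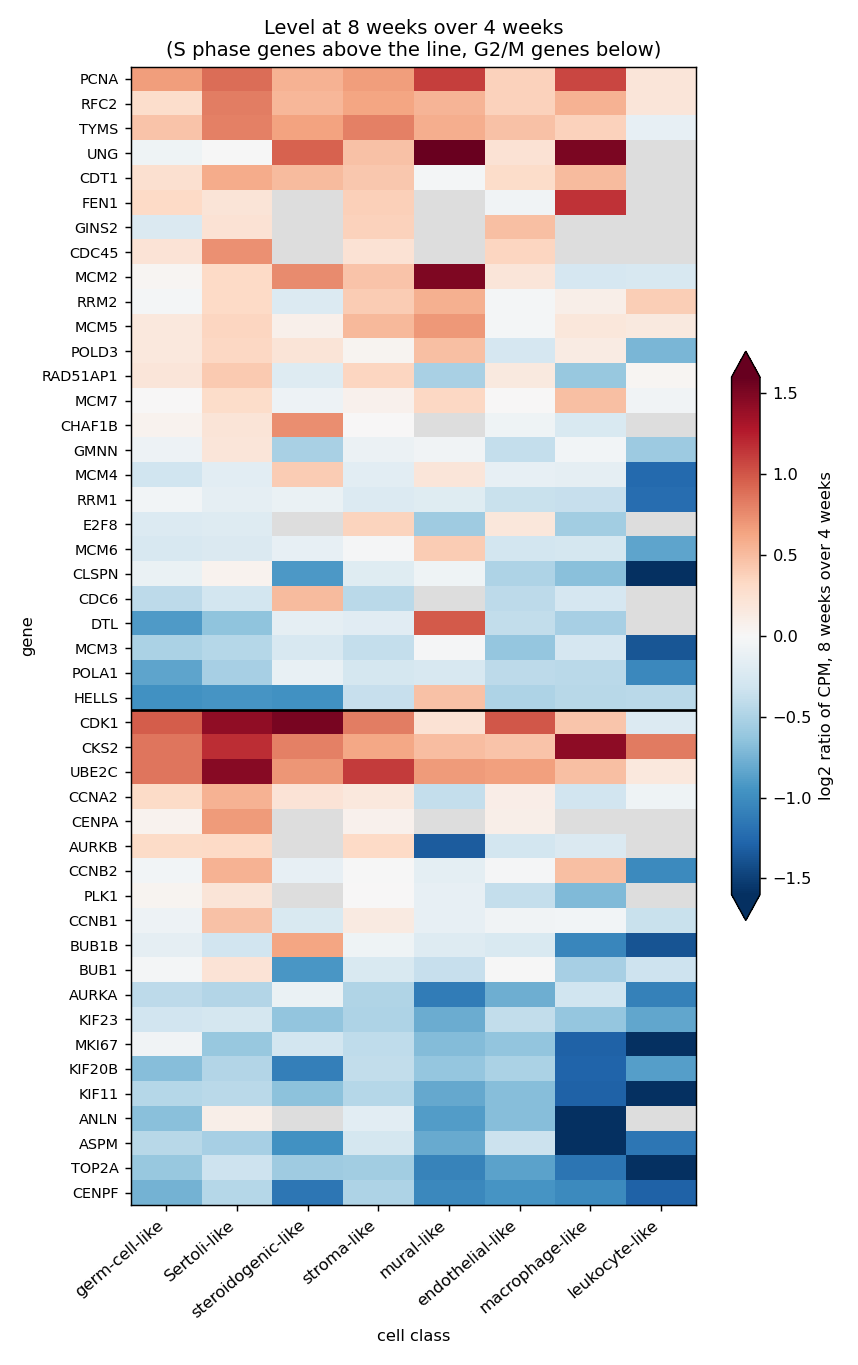
Log2 ratio of the level at 8 weeks over 4 weeks for the 46 members in 8 cell classes, ordered by the median over classes within the S phase list (above the line) and the G2/M list (below); red is higher at 8 weeks, blue lower, grey under 50 UMIs over both libraries, and the colour scale ends at 1.6 in either direction. UBE2C and CKS2 are red and CENPF, TOP2A and ASPM blue in all 8 columns.

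The S phase list split in the same manner. PCNA, the clamp, had 141 CPM at 8 weeks and 88.6 CPM at 4 weeks in stroma-like cells, a ratio of 1.59 (1.502 to 1.68), and was higher at 8 weeks in all 8 classes, as was RFC2, a subunit of its loader. TYMS was higher in 7 of 8 classes, with 200.3 CPM at 8 weeks and 114 CPM at 4 weeks in stroma-like cells. MCM3, a helicase subunit, RRM1, the large subunit of ribonucleotide reductase, and POLA1, the catalytic subunit of the primase-polymerase, were lower in all 8. MCM3 had 57.2 CPM at 8 weeks and 74.6 CPM at 4 weeks in stroma-like cells and POLA1 71.0 CPM and 127 CPM in germ-cell-like cells. Scaled by the median ratio of all genes, MCM3 turned in mural-like, POLA1 in steroidogenic-like, and RRM1 in germ-cell-like and steroidogenic-like cells.

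Within the MCM helicase the subunits did not follow one direction. The median log2 ratio over 8 classes was -0.42 for MCM3, -0.24 for MCM6 and -0.15 for MCM4, against 0.26 for MCM2, 0.18 for MCM5 and 0.04 for MCM7. RRM2, the partner of RRM1, had a median of 0.20, and RRM1 -0.21. The licensing factor CDT1 had a median of 0.43 over 7 classes and CDC6 -0.36 over 6. CLSPN, an adaptor of the replication checkpoint, had -0.34 over 8 classes, and UNG 0.47 over 7.

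GINS2 and CDC45 reached 50 UMIs in 4 classes, FEN1, a flap endonuclease, in 5, and E2F8, a repressor of S phase genes, and CHAF1B, a histone chaperone subunit, in 6. Their medians were 0.30, 0.28, 0.32, -0.21 and 0.04. DTL had -0.39 over 7 classes, RAD51AP1, a recombination factor, 0.09 over 8, POLD3 0.15 over 8 and GMNN -0.09 over 8. SLBP, which binds histone mRNA and was matched through the RefSeq table, had 83.5 CPM at 8 weeks and 41.6 CPM at 4 weeks in germ-cell-like cells, and was higher at 8 weeks in 7 of 8 classes.

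For the 15 members in 1 direction in all 8 classes, 99 of 120 pairs of member and class had an interval on that side of 1, and 21 intervals held 1. How many other genes kept 1 direction in all 8 classes was not counted, and the 8 classes come from the same libraries. The median log2 ratio of all genes was negative in each class, from -0.03 in endothelial-like to -0.30 in leukocyte-like cells. The 15 members, and the 6 classes used next, were picked after their values were seen. Steroidogenic-like and mural-like cells, where directions turned under these settings, were left out, which favours the counts that follow. Without the barcodes of highest doublet score or with looser gates, far fewer members stayed lower in all 8 classes, as given at the end. In the 6 classes other than steroidogenic-like and mural-like cells, 15 of 15 kept their direction without the barcodes of highest doublet score and with looser gates, 14 of 15 without the barcodes with most UMIs, 13 of 15 under the median scaling, and 11 of 15 with the mean of each cell's own CPM. With stricter gates 14 of 15 kept it. The exceptions were MKI67 in germ-cell-like cells under stricter gates and the median scaling, RRM1 in germ-cell-like cells under the median scaling, and KIF23 in Sertoli-like cells without the barcodes with most UMIs and with each cell's own CPM. With each cell's own CPM, POLA1 also turned in stroma-like and endothelial-like, RFC2 in leukocyte-like and CKS2 in endothelial-like cells.

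The weight of these genes in the list is given by the make-up of the G2/M UMIs. The 5 genes below were picked from the ratios above, so the make-up restates those ratios and adds no support to them. CKS2, UBE2C and CDK1 together gave 31.8% of the list's UMIs at 8 weeks and 17.6% at 4 weeks over all cells, and CENPF and TOP2A together gave 25.0% and 34.2%. In stroma-like cells CKS2, UBE2C and CDK1 gave 28.5% at 8 weeks and 14.8% at 4 weeks, and in macrophage-like cells 43.8% and 15.6%. The sums of the other 17 G2/M members, lowered by that choice, had ratios from 0.43 (0.40 to 0.47) in leukocyte-like to 0.85 (0.83 to 0.88) in Sertoli-like cells. With all 20 members the Sertoli-like ratio was 1.18 (1.16 to 1.21) and the stroma-like ratio 0.93 (0.92 to 0.95). The direction of a G2/M sum in Sertoli-like cells thus turned with 3 genes.

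**Figure D4:**
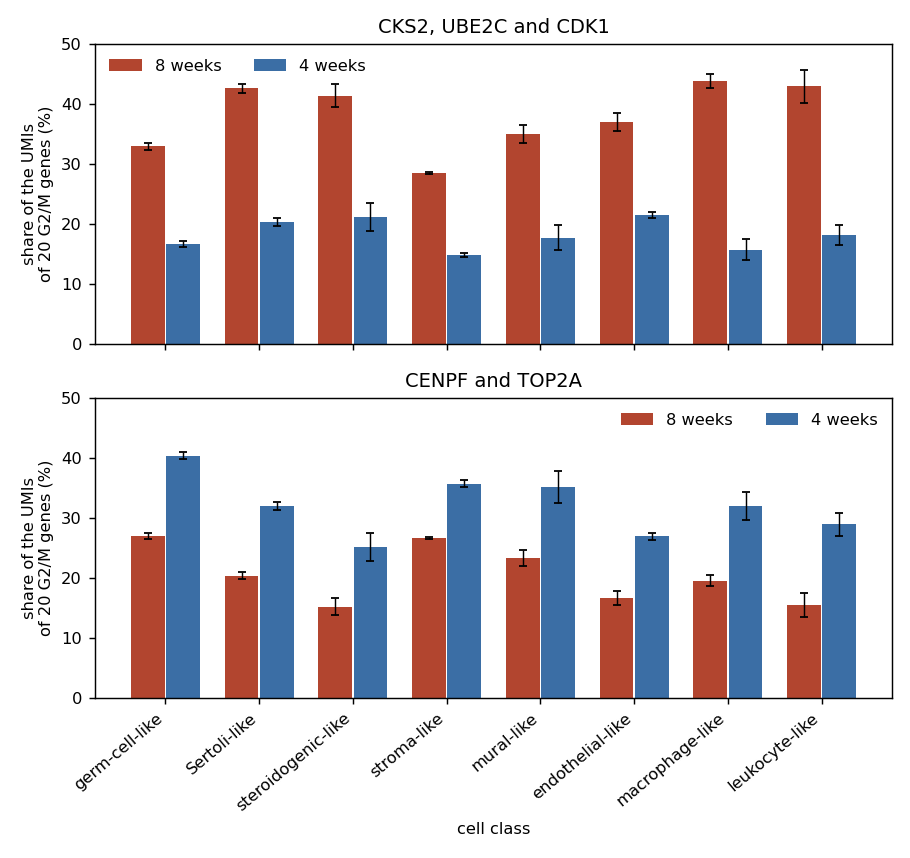
Share of the UMIs of the 20 G2/M genes that came from CKS2, UBE2C and CDK1 (top) and from CENPF and TOP2A (bottom) in 8 cell classes; bars are libraries (8 weeks red, 4 weeks blue) with exact 95% intervals of counting error. The red bar is the higher one in every class above (28.5% against 14.8% in stroma-like cells) and the lower one in every class below.

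The same question was put to cells picked by genes outside the lists. Among stroma-like cells with 5 or more UMIs of 39 other G2/M genes after thinning, 1692 cells at 8 weeks and 301 at 4 weeks, TOP2A had 628 CPM at 8 weeks and 1183 CPM at 4 weeks, and UBE2C 619 CPM and 332 CPM. In these cells MKI67 had 308 CPM and 535 CPM, and CCNB1 211 CPM and 203 CPM. In Sertoli-like cells picked in this way UBE2C had 976 CPM at 8 weeks and 244 CPM at 4 weeks, a ratio of 3.99 (3.04 to 5.31), while CENPF had 636 CPM and 632 CPM and MKI67 182 CPM and 165 CPM, with intervals that held 1. UBE2C was thus higher at 8 weeks in such cells of both classes, and CENPF and MKI67 were lower in those of stroma-like cells. In such Sertoli-like cells each member that was lower in all 8 classes had an interval that held 1, as with TOP2A (0.84, 0.64 to 1.10). CCNB1 had a ratio of 2.49 (1.59 to 3.995) there. In germ-cell-like cells picked alike, TOP2A had 0.56 (0.46 to 0.67) and MKI67 0.99 (0.71 to 1.38). Over all cells picked alike, TOP2A had 0.84 (0.79 to 0.88) and ASPM 1.09 (1.01 to 1.17). Stroma-like cells with 5 or more UMIs of the 39 other genes were 27.4% of cells at 8 weeks and 22.3% at 4 weeks, and Sertoli-like ones 20.5% and 21.2%.

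A member was counted as changed where its CPM differed at least 1.5-fold between stages, among genes with at least 50 UMIs over both libraries. Over all cells, which mix the classes in unlike proportions, 3 of 26 S phase and 3 of 20 G2/M members were higher at 8 weeks, against 17.6% of all genes, and 1 and 0 were lower, against 27.6%. In stroma-like cells 3 of 26 and 3 of 20 were higher, against 16.3% of all genes, and 0 of either list lower, against 18.4%. In Sertoli-like cells 5 of 26 and 4 of 20 were higher, against 16.3%, and 2 and 1 lower, against 22.9%. In germ-cell-like cells 1 of 26 and 3 of 20 were higher, against 17.6%, and 3 and 4 lower, against 18.4%. In these 3 classes the members' shares past the fold lay close to those of all genes or below them.

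In endothelial-like cells 0 of 26 S phase and 2 of 20 G2/M members were higher, against 16.1% of all genes, and 1 and 6 lower, against 18.2%. In steroidogenic-like cells 4 of 22 and 4 of 16 were higher, against 11.9%, and 2 and 6 lower, against 19.4%. In macrophage-like cells 3 of 24 and 1 of 19 were higher, against 17.9%, and 2 and 10 lower, against 21.0%. In mural-like cells 5 of 21 and 1 of 19 were higher, against 20.4%, and 0 and 10 lower, against 22.0%. In leukocyte-like cells 0 of 17 and 1 of 16 were higher, against 14.0%, and 7 and 10 lower, against 34.9%. In each of these 5 classes the share of G2/M members lower at 8 weeks was above that of all genes. The 4-week cells numbered 1242 in endothelial-like, 141 in steroidogenic-like and 60 to 114 in the other 3 classes.

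Other genes of the cell cycle, from lists written for this work, lay similarly. Of 39 other G2/M genes in stroma-like cells 15 were higher and 24 lower at 8 weeks, with a median log2 ratio of -0.10 against -0.05 for all genes. At least 1.5-fold higher were 3 (7.7%), against 16.3% of all genes, and at least 1.5-fold lower 2 (5.1%), against 18.4%. The list thus passed the fold less often than all genes. CDCA3, which triggers mitotic entry, had 81.7 CPM at 8 weeks and 39.8 CPM at 4 weeks, and PTTG1, the securin that guards sister chromatids, 119 CPM and 63.1 CPM. INCENP, a partner of AURKB, had 21.1 CPM and 33.5 CPM. In macrophage-like cells 5 of 37 were higher and 32 lower, with a median of -0.72 against -0.06 for all genes.

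Of 30 other S phase genes in stroma-like cells 16 were higher and 14 lower, with a median of 0.04. ASF1B, a histone chaperone, had 35.9 CPM at 8 weeks and 15.6 CPM at 4 weeks there, and TK1, the thymidine kinase, 44.7 CPM and 19.8 CPM. ATAD2, a chromatin-bound ATPase, had 160 CPM and 232 CPM. In germ-cell-like cells RPA2, a subunit of the single-strand binding complex, had 214 CPM at 8 weeks and 76.6 CPM at 4 weeks, and NASP, a carrier of linker histones, 568 CPM and 918 CPM.

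Among the inhibitors of cyclin-dependent kinases, CDKN1C (p57) differed most between classes. It stood at 7917 CPM at 8 weeks and 6505 CPM at 4 weeks in steroidogenic-like cells, at 3781 CPM in podocyte-like and 1619 CPM in distal-tubule-like cells at 4 weeks, at 1570 CPM and 991 CPM in stroma-like cells, and at 239 CPM and 142 CPM in germ-cell-like cells. The 3 classes with most CDKN1C at 4 weeks, steroidogenic-like, podocyte-like and distal-tubule-like, had low G2/M shares, from 11.5% to 13.5%. Proximal-tubule-like cells had a share of 14.6%, whose interval overlapped theirs, with 363 CPM of CDKN1C, less than stroma-like cells. A low G2/M share was thus not confined to classes with much CDKN1C. Stroma-like cells at 8 weeks had nearly the CDKN1C of distal-tubule-like cells at 4 weeks (1570 CPM and 1619 CPM), with a share of 36.0%. At 4 weeks their share was 29.4%. Sertoli-like cells had 1014.5 CPM at 8 weeks and 857.6 CPM at 4 weeks, with shares of 37.0% and 31.6%. Leukocyte-like cells at 4 weeks combined the least CDKN1C (61.8 CPM) with 35.2%. This is a description over classes that share their libraries.

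**Figure D5:**
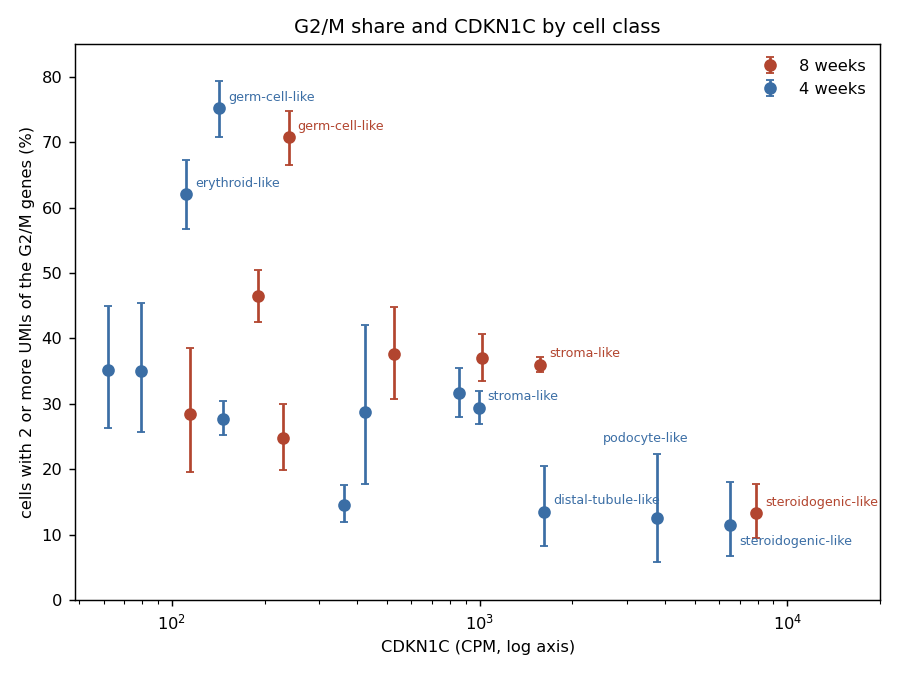
CDKN1C level (CPM, log axis) and share of cells with 2 or more UMIs of the G2/M genes by cell class (8 weeks red, 4 weeks blue; bars are exact 95% intervals of the share). Steroidogenic-like cells lie at the lower right (7917 and 6505 CPM with 13.3% and 11.5%) and germ-cell-like cells at the upper left.

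Of the other inhibitors, CDKN2C (p18), an inhibitor of CDK4 and CDK6, had 17.2 CPM at 8 weeks and 5.8 CPM at 4 weeks in stroma-like cells, and CDKN2D (p19) 37.0 CPM and 17.3 CPM. CDKN1A (p21), a target of p53, was lower at 8 weeks, with 19.5 CPM at 8 weeks and 34.5 CPM at 4 weeks in stroma-like and 24.9 CPM and 61.0 CPM in Sertoli-like cells. CDKN1B (p27) had 24.0 CPM and 25.8 CPM in stroma-like cells, CDKN2B (p15) under 5 CPM in all 8 classes, and CDKN2A was not analysed here.

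The G1 cyclins and kinases differed by class as well. CCND3 stood at 310 CPM at 8 weeks and 275 CPM at 4 weeks in steroidogenic-like cells and at 160 CPM and 98.0 CPM in stroma-like cells. CCND2 stood at 399 CPM and 451 CPM in stroma-like and at 152 CPM and 277 CPM in Sertoli-like cells, and CDK6 at 72.2 CPM and 152 CPM in Sertoli-like cells. CDK4 stood at 193 CPM at 8 weeks and 138 CPM at 4 weeks in stroma-like cells. CCND1, CDK2, CCNE1 and CCNE2 stood at 211, 28.3, 17.0 and 8.5 CPM at 8 weeks in stroma-like cells, against 261, 26.2, 15.2 and 6.8 CPM at 4 weeks.

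Of 18 E2F, RB and MuvB regulators, which time the transcription of these lists, 14 were lower and 4 higher at 8 weeks in stroma-like cells, 12 and 6 in Sertoli-like cells. Their median log2 ratios were -0.22 and -0.325, against -0.05 and -0.13 for all genes. At least 1.5-fold lower were 3 in stroma-like and 5 in Sertoli-like cells, against 18.4% and 22.9% of all genes. At least 1.5-fold higher were 2 and 1, against 16.3% of all genes in either class. LIN9, a MuvB subunit, had 57.5 CPM at 8 weeks and 98.8 CPM at 4 weeks in stroma-like cells, and 47.2 CPM and 112 CPM in germ-cell-like cells. E2F5, an E2F repressor, had 21.7 CPM and 32.5 CPM in stroma-like cells. LIN37, another MuvB subunit, stood higher, with 20.6 CPM at 8 weeks and 9.3 CPM at 4 weeks. Of 11 genes of meiotic entry, 7 reached 50 UMIs over both libraries in germ-cell-like cells, 2 higher and 5 lower at 8 weeks. Their median log2 ratio was -0.35, against -0.05 for all genes. Among them STRA8, the meiotic gatekeeper, had 7.4 CPM at 8 weeks and 10.8 CPM at 4 weeks, and SYCP2, of the synaptonemal complex, 10.3 CPM and 5.0 CPM.

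Germ-cell-like cells were split by DAZL, MAEL and DDX4, genes of later germ cells. Cells with at least one of them numbered 418 at 8 weeks and 302 at 4 weeks, and cells with none 102 and 117. The cells with them summed to 3043 CPM of G2/M members at 8 weeks and 3448 CPM at 4 weeks, and those without to 2493 CPM and 2209 CPM. The ratio was 0.88 (0.87 to 0.90) with these genes and 1.13 (1.06 to 1.21) without. Leaving out CKS2, UBE2C and CDK1, picked for their higher values at 8 weeks, both ratios were below 1. They were 0.71 (0.70 to 0.73) in cells with DAZL, MAEL or DDX4 and 0.85 (0.78 to 0.92) in cells without. The ratio of the thinned G2/M shares was 0.91 (0.83 to 0.99) in the first group and 1.03 (0.86 to 1.24) in the second. Median depth also differed, at 13241.5 UMIs at 8 weeks and 19326 UMIs at 4 weeks with DAZL, MAEL or DDX4 and 4565.5 UMIs and 6557 UMIs without, and its part in the result was not tested. S phase sums were lower at 8 weeks in both, with ratios of 0.80 (0.78 to 0.81) with them and 0.90 (0.85 to 0.95) without.

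S phase and G2/M UMIs occurred in the same cells. In stroma-like cells 73.1% of cells with 2 or more G2/M UMIs also had 2 or more S phase UMIs at 8 weeks, against 42.1% of those without, and at 4 weeks 71.5% against 31.7%. The same held in Sertoli-like cells, with 74.8% against 58.8% at 8 weeks and 72.2% against 49.1% at 4 weeks. In germ-cell-like cells nearly every cell had S phase UMIs either way (96.3% against 91.8% at 8 weeks, 98.7% against 98.0% at 4 weeks).

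Cells with G2/M UMIs after thinning also carried more UMIs before it. Their median was 11509 UMIs against 6640.5 UMIs for the rest in stroma-like cells at 8 weeks, and 10560 UMIs against 7798 UMIs at 4 weeks. In Sertoli-like cells it was 21526.5 UMIs against 13692 UMIs at 8 weeks and 26324.5 UMIs against 14122.5 UMIs at 4 weeks. Steroidogenic-like cells had no such excess at 8 weeks, at 19203 UMIs against 22403.5 UMIs. The part of depth in the shares was not tested beyond the thinning.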

How the data were processed

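The deposited matrices hold raw whole-number UMI counts per gene and barcode. Per the file headers they come from Cell Ranger 7.1.0. The submitters' processing notes name Cell Ranger 2.1.1 instead, and the library kit in the labels is a DNBelab C kit. Genome build, annotation and intron counting: not given in the sources used here. A RefSeq gene table named 768 locus identifiers. Members and lists were chosen with earlier results of these data known, and every member may be named.

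Cells with at least 1000 UMIs were gated by marker scores, the mean of log2(1 + UMIs per 10000), at 50% of the mean of the 50 top cells and with 3 or more markers; cells that met 2 gates were left out, and the pre-granulosa gate, with 18 cells at 8 weeks, was not compared. No doublets were removed. UMIs were summed per class and library as CPM, for classes with at least 50 cells in each library. Shares carry Clopper-Pearson intervals, levels Poisson, level ratios conditional binomial and share ratios Katz intervals at 95%. A sum of 0 took a floor of 3 counts. The calculations (Python 3.11.15, scipy 1.17.1) were tested on simulated data. Replicates were absent, so no p-value is given. No promoter or protein sequences were used here.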

Additional observations from a re-analysis of the deposited data

Results flagged for a closer look

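Some ratios of 8 over 4 weeks lay on opposite sides of 1 in different classes, with intervals of counting error that excluded 1 in both. None of these differences was tested, because each stage is 1 library. The S phase share ratio was 1.23 in stroma-like cells and 0.964 in germ-cell-like cells. The ratio of summed S phase levels was 1.32 in mural-like cells and 0.767 in leukocyte-like cells, classes with 60 and 114 cells at 4 weeks. The ratio of summed G2/M levels was 1.18 in Sertoli-like cells and 0.621 in leukocyte-like cells.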

How the results depend on the processing

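No paired analysis was possible because each stage is 1 library. Leaving out the barcodes shared between the libraries, another thinning draw and adding SLBP turned no share ratio round. The alternatives with a list trimmed by name, 5 or more UMIs, gates at 40%, another draw and SLBP added were chosen after seeing the data. The cause of the shifts below was not tested. All ratios are 8 over 4 weeks.

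Thinned to 1000 UMIs, the S phase share ratio was 0.871 in germ-cell-like, 1.56 in steroidogenic-like and 1.15 in stroma-like cells, and the G2/M ratio 1.09 in stroma-like and 0.905 in macrophage-like cells. Thinned to 4000 UMIs, the S phase ratio was 1.0004 in germ-cell-like and 1.13 in stroma-like cells. Without thinning the S phase ratio was 0.989 in germ-cell-like, 1.0015 in Sertoli-like, 0.930 in stroma-like and 0.974 in all cells, and the G2/M ratio 0.969 in stroma-like and 0.960 in all cells. Counting cells with 1 or more UMIs, the S phase ratio was 0.994 in germ-cell-like and 1.09 in stroma-like cells, and the G2/M ratio 1.1001 in stroma-like cells. With 3 or more UMIs the S phase ratio was 0.899 in germ-cell-like and 1.55 in mural-like cells, and the G2/M ratio 4.48 in steroidogenic-like cells. With 5 or more UMIs the S phase ratio was 0.735 in germ-cell-like, 1.36 in Sertoli-like, 2.99 in steroidogenic-like, 1.12 in stroma-like, 2.36 in mural-like and 0.625 in leukocyte-like cells, and the G2/M ratio 3.99 in steroidogenic-like and 1.10 in stroma-like cells.

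Without PCNA, TYMS and RFC2 the S phase ratio was 0.927 in germ-cell-like and 0.803 in endothelial-like cells. Without CKS2, UBE2C and CDK1 the G2/M ratio was 0.821 in germ-cell-like, 0.861 in Sertoli-like, 0.702 in macrophage-like, 0.448 in leukocyte-like and 0.926 in all cells. Without HELLS, MCM5 and GMNN the S phase ratio was 1.27 in Sertoli-like and 1.42 in steroidogenic-like cells. With gates at 40% the G2/M ratio was 2.08 in mural-like cells.

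A member counts as lower or higher in all 8 classes only where it reaches 50 UMIs in each. As reported, 3 S phase and 8 G2/M members were lower and 2 of each list higher in all 8. Without the 6% of barcodes with most UMIs 3 G2/M members were lower, and without the 6% with the highest doublet scores 0 of either list. With the mean of each cell's own CPM 1 S phase and 3 G2/M members were lower and 4 and 1 higher, and 29 G2/M pairs of member and class passed 1.5-fold higher, against 19 as reported. Scaled by the median ratio of all genes 0 S phase members were lower and 5 higher. With gates at 40% 1 S phase and 0 G2/M members were lower and 31 G2/M pairs passed 1.5-fold higher.

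Depth limited GINS2, CDC45 and CENPA to 4 classes and FEN1 to 5.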
